A study of Mus musculus with 6 samples.

Results

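Transforming growth factor beta (TGF-beta) signalling was followed through 10 genes of mouse liver, taken by gene symbol. They are the ligands Tgfb1, Tgfb2 and Tgfb3, the receptors Tgfbr1, Tgfbr2 and Tgfbr3, the receptor-activated SMADs Smad2 and Smad3, and the inhibitory SMADs Smad6 and Smad7. All 10 were among the 21899 genes of the deposited table, and all 10 were among the 12599 genes with enough counts to be tested.

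The livers came from wild-type C57BL6J mice kept for 6 weeks on one of a pair of diets. The tested diet lacked methionine and choline (MCD, 3 libraries), and the control diet contained enough of both (MCS, 3 libraries). Age and sex are not given in the sources used here. MCD feeding is a standard way to model metabolic dysfunction-associated steatohepatitis in mice, and the series sets out to characterise the transcripts of such livers.

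TGF-beta ligands are secreted as latent dimers and must be released from their propeptides before they can bind receptors. The type II receptor TGFBR2 binds the freed ligand and phosphorylates the type I receptor TGFBR1, which phosphorylates SMAD2 and SMAD3, and these enter the nucleus with SMAD4. SMAD7 and SMAD6 are inhibitory members of the family that block receptors or SMAD complexes, and TGFBR3 (betaglycan) is a co-receptor that presents ligand. In liver the pathway is best known for turning stellate cells into collagen-producing myofibroblasts and for restraining hepatocyte proliferation.

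The stretches from 120 bases before to 20 bases after the start of the gene are shown for 4 of these genes. Tgfb1 and Tgfb2 were the only ligands with a promoter sequence available, and Smad6 carries a palindromic SMAD-binding motif at its start. Any link between promoter and response to diet was not tested. They are RefSeq sequences of the GRCm38.p6 build, written 5′ to 3′ on the strand of the gene, and capitals mark the motifs found by letter search on both strands. Tgfbr1 has 2 starts in the table, and the first is shown.
Tgfb2 (chr1:186705970-186706109, minus strand): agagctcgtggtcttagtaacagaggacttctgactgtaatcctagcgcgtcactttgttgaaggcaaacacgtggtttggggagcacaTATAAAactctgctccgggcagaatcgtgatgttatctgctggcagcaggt
Tgfb1 (chr7:25686882-25687021, plus strand): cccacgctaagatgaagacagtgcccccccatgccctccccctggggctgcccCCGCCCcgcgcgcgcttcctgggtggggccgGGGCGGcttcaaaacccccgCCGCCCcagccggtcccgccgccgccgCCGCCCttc
Tgfbr1 (chr4:47353102-47353241, plus strand): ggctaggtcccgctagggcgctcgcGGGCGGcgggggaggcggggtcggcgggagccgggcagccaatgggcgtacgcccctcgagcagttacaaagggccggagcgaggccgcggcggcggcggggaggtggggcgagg
Smad6 (chr9:64022040-64022179, minus strand): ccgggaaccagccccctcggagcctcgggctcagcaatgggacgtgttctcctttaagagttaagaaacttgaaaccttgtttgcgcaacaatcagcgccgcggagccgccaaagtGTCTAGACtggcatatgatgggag
The Tgfb2 promoter has a TATA box, TATAAA, that begins 31 bases before the start. That motif occurs in 13.6% of the 32851 promoters of 300 bases in the table. The Tgfb1 and Tgfbr1 stretches hold the GC box GGGCGG or its reverse complement CCGCCC, which 35.7% of promoters hold, and no TATAAA. The Smad6 start lies within the palindrome GTCTAGAC, a SMAD-binding element found in 70 of the 32851 promoters (0.213%). The capitals are letter matches only, and binding at them was not measured.

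Of the 10 genes, 4 rose on the MCD diet and none fell, as tested by edgeR's quasi-likelihood test at a Benjamini-Hochberg adjusted p under 0.05 over all tested genes. The 4 were the ligands Tgfb2 and Tgfb3 and the signalling receptors Tgfbr1 and Tgfbr2. Among all tested genes 14.8% rose and 9.96% fell, 24.7% in all. The median log2 fold change (MCD over MCS) of the 10 genes was 0.60, and that of all tested genes was 0.01. The 3 MCD libraries lay above the 3 MCS libraries for 6 of the 10 genes, against 23.9% of all tested genes separated in that direction and 45.3% in either. With 1 library left out, 1 to 5 of the 10 rose: 2 without MCD replicate 1 (8.12% of all tested genes rose), 5 without MCD replicate 2 (18.2%), 3 without MCD replicate 3 (11.7%), 3 without MCS replicate 1 (7.27%), 1 without MCS replicate 2 (7.22%) and 5 without MCS replicate 3 (11%). In whole liver, a change in the number of cells of a type cannot be told apart from a change in RNA per cell. Nothing in the labels states that replicates are separate animals, and p-values therefore measure only how these libraries vary, possibly for technical reasons.

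**Figure D1:**
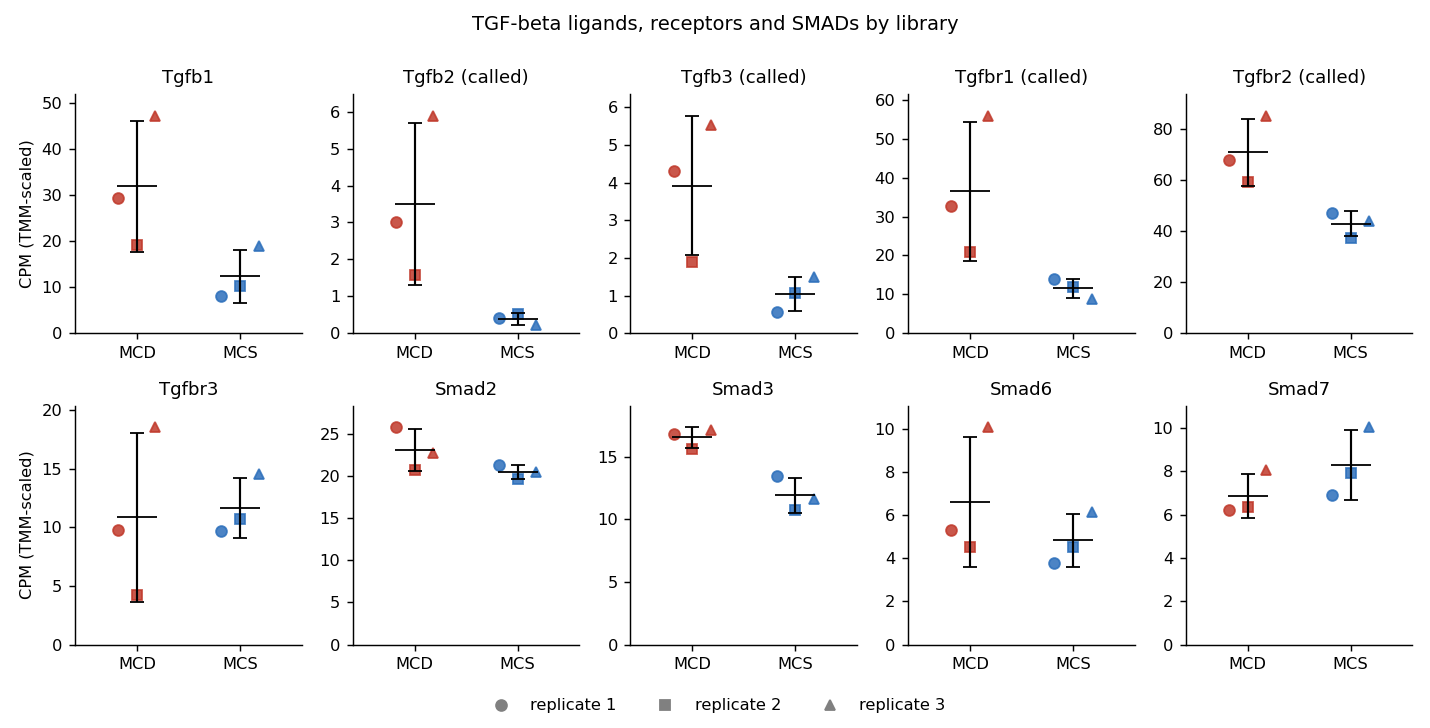
Levels of the 10 genes in CPM (a count relative to the TMM-scaled library size) on the MCD and MCS diets, with 1 symbol per replicate and the mean ± SD in black (n = 3 libraries per diet). The panels marked "called" passed at adjusted p under 0.05, and MCD replicate 3 is the highest MCD library in 9 of the 10 panels.

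Tgfb2 (ENSMUSG00000039239), a ligand of the embryonic and epithelial tissues that is also made by cholangiocytes and stellate cells, changed the most. It stood at 3.01, 1.58 and 5.88 CPM in MCD replicates 1 to 3, against 0.40, 0.53 and 0.22 CPM in MCS replicates 1 to 3. The lowest MCD library exceeded the highest MCS library, although the MCS values rest on only 4 to 7 counts a library and the MCD values on 35 to 169. The rise was 9.19-fold (log2 fold change 3.20 ± 0.61 SE, adjusted p = 0.00772 by edgeR). It passed in all 16 alternative analyses, with 2.59 on the log2 scale without MCD replicate 3.

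Tgfb3 (ENSMUSG00000021253), the ligand typical of mesenchymal cells, had 4.31, 1.90 and 5.53 CPM in MCD replicates 1 to 3 and 0.57, 1.06 and 1.49 CPM in MCS replicates 1 to 3. The diets did not overlap, but MCD replicate 2 lay close to MCS replicate 3. Tgfb3 rose 3.75-fold (1.91 ± 0.51, adjusted p = 0.0271 by edgeR). It did not pass without MCD replicate 1, MCD replicate 3, MCS replicate 1 or MCS replicate 2 (log2 fold change 1.57 to 1.90, adjusted p = 0.0595 to 0.0949 by edgeR), or by limma-voom (adjusted p = 0.0676).

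Tgfb1 (ENSMUSG00000002603), the ligand made by macrophages, platelets and many other cells, had 29.4, 19.1 and 47.2 CPM in MCD replicates 1 to 3 and 8.11, 10.2 and 19.0 CPM in MCS replicates 1 to 3. MCS replicate 3 nearly reached MCD replicate 2, so that the diets were separated by a narrow margin. The fitted change of 2.57-fold (1.36 ± 0.41, adjusted p = 0.0518 by edgeR) just missed the threshold. Tgfb1 passed without MCD replicate 2 or MCS replicate 3 (1.59 and 1.80, adjusted p = 0.0246 and 0.0195 by edgeR) and by DESeq2 (adjusted p = 0.00435).

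Among the receptors, Tgfbr1 (ENSMUSG00000007613), the type I kinase that phosphorylates SMAD2 and SMAD3, had 32.8, 20.8 and 55.8 CPM in MCD replicates 1 to 3 and 13.9, 11.9 and 8.82 CPM in MCS replicates 1 to 3. Every MCD library was above every MCS library, and the MCD libraries varied much more among themselves (SD 17.8 CPM in MCD and 2.54 CPM in MCS livers). Tgfbr1 rose 3.18-fold (1.67 ± 0.36, adjusted p = 0.0153 by edgeR). The call was lost when MCS replicate 2 was left out (log2 fold change 1.67, adjusted p = 0.0601 by edgeR).

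Tgfbr2 (ENSMUSG00000032440), the type II kinase that binds ligand first, had 67.9, 59.3 and 84.9 CPM in MCD replicates 1 to 3 and 47.0, 37.4 and 43.9 CPM in MCS replicates 1 to 3. The diets were clearly separated, with a smaller change than that of Tgfbr1. It rose 1.65-fold (0.72 ± 0.17, adjusted p = 0.0160 by edgeR) and did not pass without MCD replicate 1 or MCS replicate 2 (0.75 and 0.63, adjusted p = 0.0509 and 0.0791 by edgeR).

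Tgfbr3 (ENSMUSG00000029287), the co-receptor betaglycan, had 9.80, 4.21 and 18.6 CPM in MCD replicates 1 to 3 and 9.72, 10.7 and 14.6 CPM in MCS replicates 1 to 3. The diets overlapped fully, since the MCD libraries included both the lowest and the highest value. The log2 fold change was −0.10 ± 0.48 (adjusted p = 0.898 by edgeR), and its sign turned to 0.53 with library size alone.

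Neither of the receptor-activated SMADs passed the test. Smad3 (ENSMUSG00000032402), which binds DNA itself, had 16.9, 15.6 and 17.2 CPM in MCD replicates 1 to 3 and 13.5, 10.7 and 11.6 CPM in MCS replicates 1 to 3. The diets did not overlap, and the fitted change of 1.39-fold (0.47 ± 0.15, adjusted p = 0.0508 by edgeR) missed the threshold by little. Its close relative Smad2 (ENSMUSG00000024563) had 25.8, 20.8 and 22.8 CPM in MCD replicates 1 to 3 and 21.4, 19.6 and 20.5 CPM in MCS replicates 1 to 3. These values overlapped, with a log2 fold change of 0.17 ± 0.13 (adjusted p = 0.371 by edgeR).

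The inhibitory SMADs, both of which are themselves induced by signals of the TGF-beta family, did not pass the test. Smad6 (ENSMUSG00000036867), which acts mainly on the bone morphogenetic protein (BMP) arm, had 5.30, 4.52 and 10.1 CPM in MCD replicates 1 to 3 and 3.79, 4.53 and 6.17 CPM in MCS replicates 1 to 3. Its highest value was that of MCD replicate 3, and the log2 fold change of 0.46 ± 0.35 (adjusted p = 0.361 by edgeR) became 0.02 without that library. Smad7 (ENSMUSG00000025880), the feedback inhibitor of TGFBR1, had 6.20, 6.33 and 8.04 CPM in MCD replicates 1 to 3 and 6.90, 7.93 and 10.03 CPM in MCS replicates 1 to 3. The diets overlapped (−0.27 ± 0.22, adjusted p = 0.400 by edgeR), and the sign turned to 0.29 with library size alone.

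The scaling of the libraries bears on the count of genes called. TMM sets the bulk of genes to no change, and with library size alone the median log2 fold change of all tested genes was 0.57. Under library size alone 7 of the 10 genes rose, Tgfb1, Smad2 and Smad3 joining the other 4, and 40.4% of all tested genes rose. Of all genes called, 93.6% rose with library size alone, against 59.7% with TMM. The order of the genes by log2 fold change was led by Tgfb2, Tgfb3 and Tgfbr1 in both cases.

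**Figure D2:**
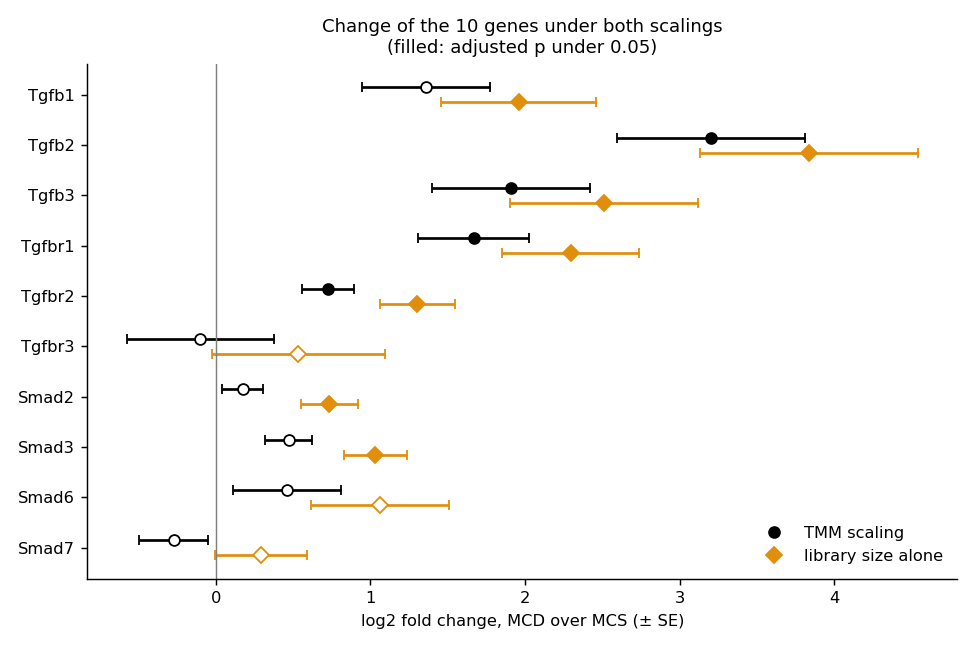
Log2 fold change of MCD over MCS ± SE for the 10 genes, by edgeR with TMM scaling (black circles) and with library size alone (orange diamonds), n = 3 libraries per diet. Filled symbols passed at adjusted p under 0.05, 4 genes with TMM and 7 with library size alone.

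Ratios of TPM (a share of all transcripts, in which counts are divided by transcript length) within a library do not depend on the scaling between libraries. Tgfb1 made up 87.9%, 90.8% and 88.5% of the summed TPM of the 3 ligands in MCD replicates 1 to 3, and 93.3%, 92.0% and 94.8% in MCS replicates 1 to 3. Tgfb1 therefore dominated ligand transcripts on both diets, with a share that was lower in each MCD library than in any MCS library. The share of Tgfb2 averaged 4.04% ± 0.740 in MCD and 1.65% ± 1.06 in MCS livers (SD, n = 3 each). The summed TPM of the ligands, which unlike the shares does depend on the scaling between libraries, was 33.5, 17.6 and 63.6 in MCD replicates 1 to 3 and 5.40, 6.88 and 13.3 in MCS replicates 1 to 3.

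The ratio of Tgfbr1 to its co-receptor Tgfbr3 was 3.63, 4.86 and 3.45 in MCD replicates 1 to 3 and 1.59, 1.31 and 0.657 in MCS replicates 1 to 3, with no overlap. The ratio of Tgfbr1 to Tgfbr2 overlapped, at 0.485 ± 0.154 in MCD and 0.269 ± 0.0838 in MCS livers (SD, n = 3 each). Smad2 exceeded Smad3 in every library, by a ratio of 2.34 ± 0.251 in MCD and 2.96 ± 0.255 in MCS livers (SD, n = 3 each), again with no overlap. The ratio of receptor-activated to inhibitory SMADs, Smad2 plus Smad3 over Smad6 plus Smad7, averaged 2.79 ± 0.558 in MCD and 2.78 ± 0.740 in MCS livers (SD, n = 3 each). Two-sided exact permutation tests of the 10 quantities computed, 9 ratios or shares and the ligand sum, could not go below p = 0.1 with 3 against 3 libraries. That value was reached by 5 of them, the shares of Tgfb1 and Tgfb2, the ligand sum, Tgfbr1 over Tgfbr3 and Smad2 over Smad3 (adjusted p = 0.2 over the 10).

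**Figure D3:**
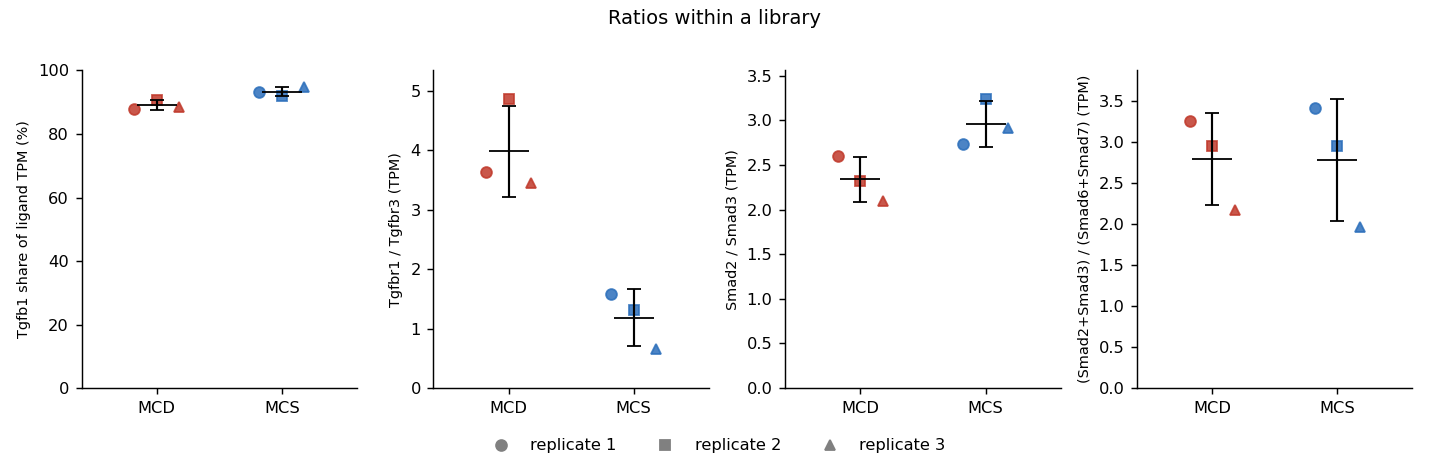
Share of Tgfb1 in the summed TPM of the 3 ligands, and ratios of TPM for Tgfbr1 to Tgfbr3, Smad2 to Smad3, and Smad2 plus Smad3 to Smad6 plus Smad7, on the MCD and MCS diets with 1 symbol per replicate and mean ± SD in black. Tgfbr1 over Tgfbr3 is at least 3.45 in the MCD libraries and at most 1.59 in the MCS libraries, while the SMAD ratio overlaps.

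By level per length, the mean TPM in MCD livers ran in the order Tgfb1 (33.9 ± 20.5 TPM), Tgfbr2 (29.7 ± 11.5), Smad2 (17.2 ± 3.79), Tgfbr1 (15.6 ± 10.6), Smad3 (7.46 ± 2.01), Smad6 (5.15 ± 3.21), Tgfbr3 (4.26 ± 3.33), Smad7 (4.16 ± 0.677), Tgfb3 (2.68 ± 1.61) and Tgfb2 (1.66 ± 1.29; SD, n = 3 libraries throughout). The ranges of all neighbours in that order overlapped. In MCS livers the order was Tgfbr2 (11.2 ± 2.24 TPM), Smad2 (10.2 ± 0.864), Tgfb1 (7.98 ± 4.04), Smad3 (3.44 ± 0.136), Tgfbr1 (2.91 ± 0.588), Smad7 (2.90 ± 0.699), Tgfbr3 (2.64 ± 0.705), Smad6 (2.24 ± 0.670), Tgfb3 (0.425 ± 0.203) and Tgfb2 (0.111 ± 0.0424). There, neighbours overlapped except at the steps from Tgfb1 to Smad3, from Smad6 to Tgfb3 and from Tgfb3 to Tgfb2. Tgfb2 and Tgfb3 were thus the least abundant of the 10 on both diets.

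Total counts were 18443357 to 21285045 in the MCD and 16615469 to 21322771 in the MCS libraries, at which 3 counts in a library are worth 0.104 to 0.226 CPM. Of 8 hepatocyte markers none was at 0 in either diet, and their summed level, most of it Alb, was 53069 to 89704 CPM in MCD and 81603 to 108011 CPM in MCS libraries. Of these markers 2 fell and none rose (9.96% of all tested genes fell and 14.8% rose). In 6 of them every MCD library lay below any MCS library, as in 2689 of all 12599 tested genes, and the median log2 fold change was −0.75. MCD replicate 3 was the highest MCD library for 9 of the 10 genes, the exception being Smad2 (42.4% of all tested genes had their highest MCD value there). MCS replicate 3 was the highest MCS library for 5 of the 10 (37.7% of all tested genes), and Tgfb2 and Tgfbr1 were lowest there.

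Markers of cell types other than hepatocytes did not all change in the same direction. Among all tested genes, 14.8% rose and 9.96% fell. Of 8 tested markers of recruited macrophages all 8 rose, and their sum was 812 to 2047 CPM in MCD and 52.5 to 58.1 CPM in MCS libraries. Of 7 cholangiocyte markers 4 rose, with sums of 46.9 to 68.7 CPM in MCD and 28.0 to 31.3 CPM in MCS libraries. Of 11 stellate cell markers 2 rose and 1 fell, with a median log2 fold change of 1.202. Their sums overlapped at 314 to 659 CPM in MCD and 476 to 613 CPM in MCS libraries, and the most abundant of them, Cxcl12, was the one that fell (252 CPM in MCD and 393 CPM in MCS livers on average). Of 7 Kupffer cell markers 3 fell and none rose, with sums of 224 to 391 CPM in MCD and 305 to 378 CPM in MCS libraries. The most abundant of them, Cd5l, was not called and makes up much of these sums (222 CPM in MCD and 160 CPM in MCS livers on average). All 5 markers of cycling cells rose. Overlapping sums were also seen for the 11 sinusoidal endothelial markers, none of which was called, at 88.5 to 474 CPM in MCD and 156 to 598 CPM in MCS libraries. No marker on these lists was at 0 in all libraries of a diet. Among the MCD libraries, replicate 3 had the highest and replicate 2 the lowest sum of the macrophage, cholangiocyte, stellate and endothelial lists. That order was also seen for Tgfb1, Tgfb2, Tgfb3, Tgfbr1, Tgfbr2 and Tgfbr3. Sums of cycling cell, T and NK cell and B cell markers followed it too, but the Kupffer cell sum was lowest in replicate 1. Replicate 3 was the highest MCD library for 42.4% of all tested genes. In MCS replicate 3, where the stellate and endothelial sums were highest, Tgfb1, Tgfb3 and Tgfbr3 were highest but Tgfb2 and Tgfbr1 lowest. The part of these cell types in the changes of the 10 genes was not tested. With replicate 3 of both diets left out, a setting chosen after seeing the data, 5 of the 10 rose, as did 14.6% of tested genes. The log2 fold change was then 1.41 for Tgfb1 (adjusted p = 0.00116), 2.30 for Tgfb2 (adjusted p = 0.0131), 1.95 for Tgfb3 (adjusted p = 0.0219), 1.06 for Tgfbr1 (adjusted p = 0.00577) and 0.59 for Tgfbr2 (adjusted p = 0.00936), all by edgeR. Tgfb2 and Tgfbr1 then had smaller fold changes by over 1.5 times.

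**Figure D4:**
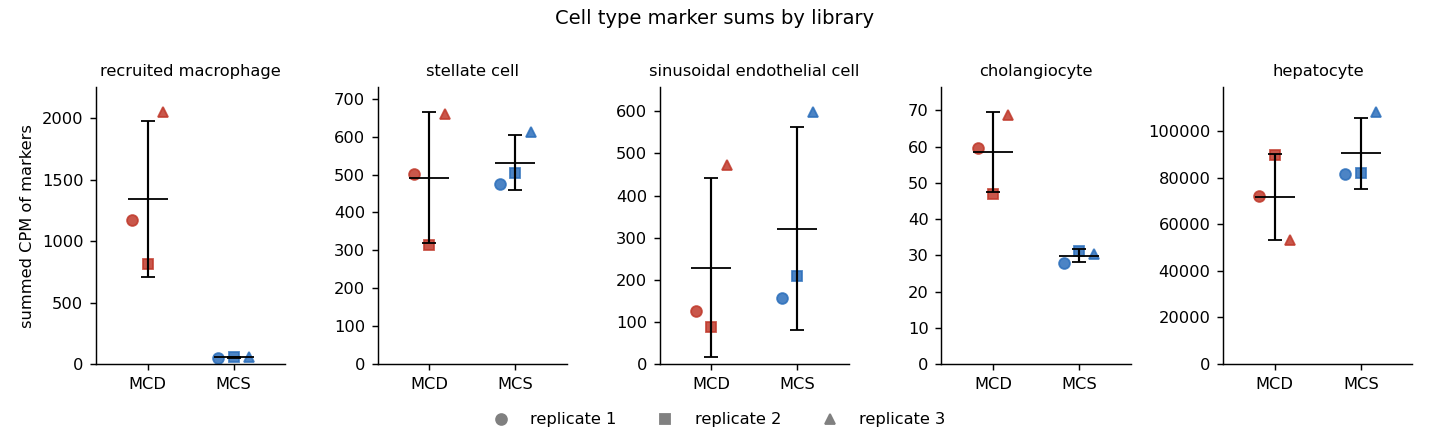
Summed CPM of the marker lists for recruited macrophages, stellate cells, sinusoidal endothelial cells, cholangiocytes and hepatocytes on the MCD and MCS diets, with 1 symbol per replicate and mean ± SD in black. Recruited macrophage and cholangiocyte sums are separated by diet, and MCD replicate 3 is the highest MCD library in every panel but that of hepatocytes, where it is the lowest.

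Of 16 tested genes that store, anchor or release latent ligand 7 rose, 1 fell and 8 did not pass, with a median log2 fold change of 1.08. Over all tested genes 14.8% rose and 9.96% fell. Thrombospondin 1 (Thbs1), which can release TGF-beta from its propeptide, stood at 11.9 ± 6.36 CPM in MCD and 1.09 ± 0.152 CPM in MCS livers (3.43 ± 0.44, adjusted p = 0.00148 by edgeR). The latent TGF-beta binding protein Ltbp3 rose by 2.47 ± 0.37 (adjusted p = 0.00302 by edgeR). Nrros, which anchors latent TGF-beta on macrophages, and Itgav, the alpha chain of the activating integrins, rose by 1.78 ± 0.29 and 0.92 ± 0.23 (adjusted p = 0.00430 and 0.0222 by edgeR). The procollagen protease Bmp1, which also cleaves latent TGF-beta binding protein, fell (−0.86 ± 0.24, adjusted p = 0.0324 by edgeR). Itgav was not called without MCS replicate 1, 2 or 3, and Bmp1 was not called without MCD replicate 1, MCS replicate 1 or MCS replicate 2. The activating integrin chain Itgb6, typical of epithelium, had 38 counts in the MCD and 0 in the MCS libraries and was too low to test. Most of these counts came from MCD replicate 3 (0.18, 0.18 and 1.04 CPM in MCD replicates 1 to 3). Without MCS replicate 1 or MCS replicate 2 the list had 3 or 4 genes that rose (7.27% and 7.22% of all tested genes did). With library size alone 11 rose and none fell, when 40.4% of all tested genes rose.

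Co-receptors and extracellular antagonists showed 1 call among 7 tested genes, while 24.7% of all tested genes were called. Pzp, a protease inhibitor of plasma that is related to alpha-2-macroglobulin, fell (−1.31 ± 0.40, adjusted p = 0.0406 by edgeR), and it did not pass in 8 of 16 alternative analyses. The median of the list was 0.94. None of the list rose, but 3 did without MCD replicate 2 (18.2% of all tested genes did) and 1 without MCS replicate 3 (11%). With library size alone 3 rose (40.4% of all tested genes), and by DESeq2 2 rose (2133 of all 12599).

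Among intracellular regulators 4 of 20 tested genes rose, against 14.8% of all tested genes, none fell and the median was 0.21. Fkbp1a, which encodes the FKBP12 protein that holds TGFBR1 inactive, had 104, 94.3 and 91.9 CPM in MCD replicates 1 to 3 and 53.2, 53.5 and 48.8 CPM in MCS replicates 1 to 3. It rose by 0.90 ± 0.13 (adjusted p = 0.00240 by edgeR) with little spread, and passed in all 16 alternative analyses. Pmepa1, a feedback inhibitor that sequesters SMAD2 and SMAD3, rose by 1.78 ± 0.42 (adjusted p = 0.0183 by edgeR), a call that was lost without MCD replicate 1, MCS replicate 1 or MCS replicate 2. Skil, a SMAD corepressor that is itself induced by TGF-beta, did not pass (0.96 ± 0.38, adjusted p = 0.0982 by edgeR), nor did Smad4, the shared partner (0.15 ± 0.13, adjusted p = 0.438 by edgeR). Between 1 and 5 of the list rose with 1 library left out, against 7.22% to 18.2% of all tested genes. The count was 1 each without MCD replicate 1 or MCS replicate 1, and 2 each without MCD replicate 3, MCS replicate 2 or MCS replicate 3. With library size alone 15 rose, when 40.4% of all tested genes did.

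Genes known to respond to TGF-beta had the highest median of these lists, 2.37. The lists were chosen with earlier results of these data known, so the ranking of their medians is a description only. Of 21 responsive genes listed, 18 had enough counts to be tested. Of these 18, 14 rose, none fell and 4 did not pass, while 14.8% of all tested genes rose and 9.96% fell. Among those that rose, Timp1, Lox and Sphk1 had only 8, 9 and 4 counts over the MCS libraries. They had 408, 389 and 136 over the MCD libraries, and met the count filter through the MCD libraries only. With no count filter 12 of the list rose (1895 of all 16582 genes did). Cdkn1a, the cell cycle inhibitor p21, which is also a target of p53, stood at 29.1 ± 4.09 CPM in MCD and 0.925 ± 0.209 CPM in MCS livers (4.95 ± 0.22, adjusted p = 2.72e-05 by edgeR). The matrix genes Tgfbi, Ccn2 and Col1a1 rose by 1.32 ± 0.31, 2.32 ± 0.55 and 2.97 ± 0.63 (adjusted p = 0.0177, 0.0241 and 0.0180 by edgeR). None of the 3 was called without MCD replicate 1 or MCS replicate 2. In all, Tgfbi, Ccn2 and Col1a1 were not called in 3, 7 and 5 of 16 alternative analyses. For both Ccn2 and Col1a1 these included the fits without MCD replicate 3, without replicate 3 of both diets, and with no count filter. Acta2, the actin of myofibroblasts, did not pass (1.82 ± 0.57, adjusted p = 0.0516 by edgeR), but passed in 6 of 16 alternative analyses, among them without MCD replicate 2 (adjusted p = 0.00500 by edgeR) and by DESeq2 (adjusted p = 0.00522). Fn1, the fibronectin gene, which hepatocytes also express, did not pass either (−0.88 ± 0.30, adjusted p = 0.0635 by edgeR), but passed in 5 of 16, among them without MCD replicate 2 or MCS replicate 3 (adjusted p = 0.0345 and 0.0388 by edgeR) and by DESeq2 (adjusted p = 0.00267). Without MCD replicate 1, MCS replicate 1 or MCS replicate 2, 9, 9 or 4 of the list rose (8.12%, 7.27% and 7.22% of all tested genes did). Without replicate 3 of both diets 8 rose (14.6% of all tested genes), and by limma-voom 9 rose (1476 of all 12599 tested genes).

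The BMP and activin arm, which shares SMAD4 and the inhibitory SMADs, had 2 genes that rose and 2 that fell among 27 tested, with a median of 0.10, while 24.7% of all tested genes were called. Inhbc and Inhbe encode activin subunits made by hepatocytes. Inhbc fell by 1.87 (log2, adjusted p = 0.00513 by edgeR), and Inhbe fell by 0.94 (adjusted p = 0.00544 by edgeR). On log2(TPM + 1) Inhbe was not called (−0.27, adjusted p = 0.107 by limma). Inhbc had 32.5, 30.4 and 18.8 CPM in MCD replicates 1 to 3 and 114, 124 and 60.9 CPM in MCS replicates 1 to 3. Id1, a target of BMP-activated SMADs, rose by 0.67 ± 0.19 (adjusted p = 0.0350 by edgeR), and it did not pass without MCD replicate 1, MCD replicate 3, MCS replicate 1 or MCS replicate 2. With library size alone 10 of the list rose (40.4% of all tested genes did) and 2 fell, and none rose without MCD replicate 1, MCD replicate 3, MCS replicate 1 or MCS replicate 2.

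**Figure D5:**
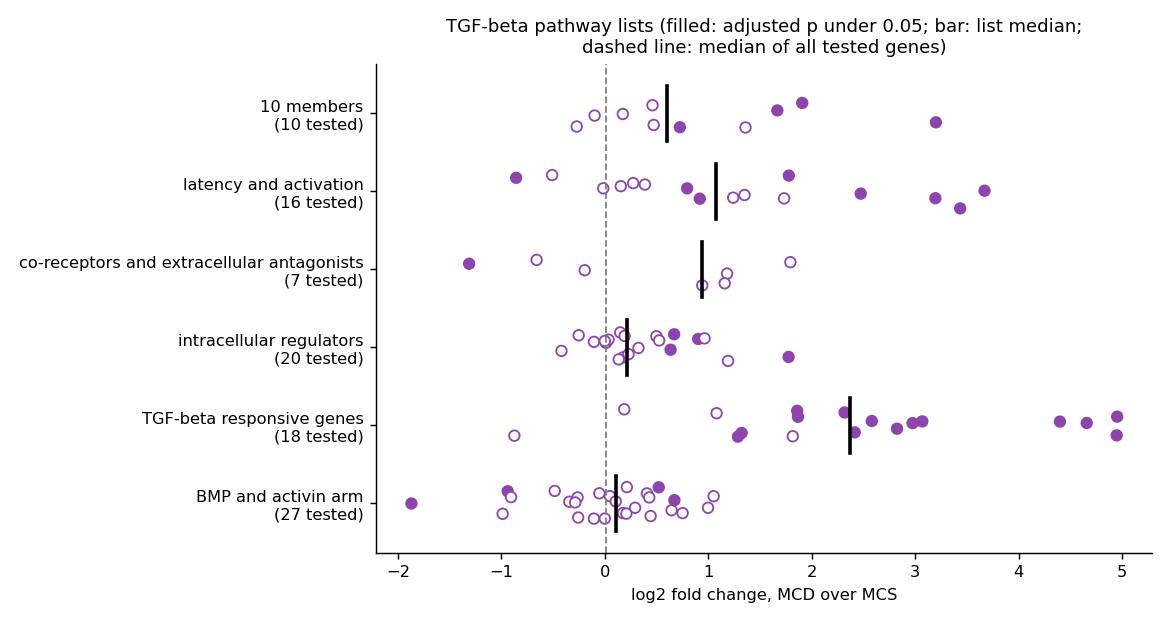
Log2 fold change of MCD over MCS for each tested gene of the 10 genes and of 5 lists of other pathway genes, 1 point per gene, filled where adjusted p was under 0.05, with the list median as a black bar and the median of all tested genes (0.01) as a dashed line. The TGF-beta responsive genes have the highest median (2.37), and the BMP and activin arm lies near the dashed line (0.10). The lists were chosen with earlier results of these data known.

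For Tgfb1, Tgfbr1 and Smad3, the genes most similar in profile over the 6 libraries were sought among 9000 others averaging 5 CPM or more. Likeness was measured by the root mean square difference of log2 CPM after centring each gene on its own mean. No inhibitory SMAD was searched in this way. Nearest to Tgfb1 were Pik3cd, a phosphoinositide kinase subunit of leukocytes, and Trim35 (differences of 0.0935 and 0.0971). Nearest to Tgfbr1 were Ptgfrn (0.131) and Ly86, which encodes MD-1 of myeloid and B cells (0.150). Nearest to Smad3 were Tbc1d10b and Washc5, a subunit of the WASH complex of endosomes (0.0462 and 0.0469). The likeness is a description of 6 libraries and was not tested.

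In the authors' deposited table, 7 of the 10 genes had a false discovery rate under 0.05 and were higher on the MCD diet, as were 20.5% of all genes listed there. That share is over all 21899 genes, including those too low to be tested here. Of 4772 genes under that rate, 4486 were higher on the MCD diet and 286 lower. The 7 were Tgfb1, Tgfb2, Tgfb3, Tgfbr1, Tgfbr2, Smad2 and Smad3, the same 7 that rose here with library size alone. The authors' deposited table gives Tgfb1 a log2 fold change of 2.09 with a false discovery rate of 4.21e-05, from mean TPM of 33.9 in MCD and 7.98 in MCS livers.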

How the data were processed

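Liver polyA RNA of 6 libraries, 3 from each diet, was sequenced, and libraries were grouped by the diet in their titles. The submitters' processing notes list RSEM, StringTie 1.3.1, HISAT2 2.1.0, Bowtie2 2.2.8 and fastp 0.18.0 and name GRCm39, without roles. The deposited table holds a whole-number estimated count and a TPM per gene and library. Between 5 and 15 genes per library have a count of 0 beside a TPM above 0, so the counts were taken as rounded estimates. TPM as deposited adds up to the same total in every library. The authors also deposited a log2 fold change, p-value and FDR by a test that no label or header names. The labels do not state whether counting used strand, so overlapping genes on opposite strands cannot be told apart.

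Counts were tested in R 4.3.3 with edgeR 4.0.16 (TMM, filterByExpr with a minimum count of 10, robust quasi-likelihood fit with diet as the only term), with limma 3.58.1 and DESeq2 1.42.0 as alternatives. SE is the log2 fold change over the square root of F. The script was tested on simulated data. The members and the lists were chosen with earlier results of these data known. All 10 members are named. For each pathway list the rule names the 2 called genes of smallest p in the direction with more calls and the 1 in the other direction. Where both directions had as many calls, the one with the smallest p came first. A gene that this rule names is not reported here. Nrros, Itgav, Itgb6, Skil, Smad4, Tgfbi, Ccn2, Col1a1, Acta2, Fn1, Timp1, Lox and Sphk1 were chosen after their values were seen. Promoters came from RefSeq on GRCm38.p6, which held 6 of the 10 members. Replicates of a diet differed by more than counting noise in every pair (a chi-square over its degrees of freedom of 13.7 or more).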

Additional observations from a re-analysis of the deposited data

How the results depend on the processing

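With 1 library left out in turn, 1 to 5 of the 10 genes rose (4 with all libraries) and none fell, the lowest count without MCS replicate 2 and 2 without MCD replicate 1. Over the same fits 1347 to 4435 genes were called, 946 to 2363 upward and 400 to 2072 downward (3116, 1861 and 1255 with all libraries); the total was 1379 without MCS replicate 1, 1347 without MCS replicate 2 and 1472 without MCD replicate 1. With library size alone 5442 genes were called (5094 up, 348 down), on log2(TPM + 1) 5713 (5449 up, 264 down) and on log2(TPM + 0.1) 5992 (5718 up, 274 down), and 7 of the 10 genes rose under each. Under these 3 settings the sign turned for Tgfbr3 (0.53, 0.34 and 0.38) and Smad7 (0.29, 0.41 and 0.52), and with 1 library left out Tgfbr3 ran between −0.74 (without MCD replicate 3) and 0.25 (without MCD replicate 2), also turning without MCS replicate 3 (0.08). The cause was not tested. Tgfb2 had 1.15 on log2(TPM + 1), a scale that understates changes of low genes. Smad3 passed with upper quartile scaling (0.52, adjusted p = 0.0385 by edgeR). With a replicate block 3284 genes and 5 of the 10 were called, Tgfb1 being the fifth (adjusted p = 0.00320 by edgeR); Acta2 and Fn1 also passed (adjusted p = 0.00464 and 0.0445 by edgeR), and 4 co-receptors or antagonists and 2 intracellular regulators rose. Deviations of same-numbered libraries correlated at 0.08, 0.16 and 0.24 across genes, not all above 0.1, so the numbers were not taken as pairs, and MCS replicate 1 correlated more with MCD replicate 2. Tgfb2 rests on 4 to 7 counts in each MCS library, which limits the precision of its fold change.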
